A study of Mus musculus with 2 samples.

Results

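The genes described here are 8 mouse genes whose products take part in the fusion of mononuclear osteoclast precursors, or of macrophages, into multinucleated cells: Dcstamp, Ocstamp, Atp6v0d2, Cd9, Cd81, Cd47, Sirpa and Adam8. Members were chosen by name, as the non-control probes that carry one of these symbols or an older alias on both arrays, without use of any measured value. They account for 8 of 28786 gene names and 16 of 41174 probes on the array. Dcstamp is listed there as Tm7sf4, and Ocstamp under a clone name. All 8 had at least 1 probe that was measured, meaning well above background, on both arrays. So did 16023 gene names over the whole array.

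The study asked what simulated microgravity does to preosteoclasts. RNA of RAW 264.7 cells, a mouse macrophage-like line that becomes osteoclast-like when given the cytokine RANKL, was measured on 1 array of cells labelled control and 1 array of cells labelled RCCS. The RCCS is a rotary cell culture system that keeps cells in suspension and is used to model microgravity. The protocol, worded identically for both samples, gives RAW 264.7 cells in medium with serum, 24 h in the RCCS, RANKL at 80 ng/ml for 24 h, and ground-based control cells kept alongside. It does not state the time of RANKL relative to the rotation, and describes the extracted RNA of both conditions as coming from RANKL-stimulated cells. The only cells present are this line, so osteoblasts and stromal cells, which supply RANKL in bone, are not part of the model. With 1 array per condition there is no replicate, no p-value can be given, and each difference below lacks a replicate check.

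Fusion follows the commitment of a precursor by RANKL, which acts through its receptor RANK and the transcription factors Fos and Nfatc1. Dcstamp and Ocstamp are multi-pass membrane proteins without which precursors stay mononuclear, and Atp6v0d2, a subunit of the vacuolar proton pump, is needed for efficient fusion beside its part in acid secretion. The tetraspanins Cd9 and Cd81 organise membrane proteins into microdomains, Cd47 is the ligand of the receptor Sirpa on apposed macrophages, and Adam8 is a membrane-anchored metalloprotease of the disintegrin family that has been linked to osteoclast formation.

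Transcripts of the fusion genes Dcstamp and Ocstamp and of the pump subunit gene Atp6v0d2 were lower on the RCCS array, by 3.07-fold, 1.93-fold and 1.95-fold. Adam8 was 1.95-fold higher, Cd9 1.77-fold higher and Sirpa 1.41-fold higher. Cd81 and the mean of the Cd47 probes lay close to 0. Of all genes measured on both arrays, 3.76% lay past 2-fold downwards and 3.88% past 2-fold upwards. Beside these shares, 1 of the 8 members was at least 2-fold lower (Dcstamp) and none was 2-fold higher, a fold that serves as a description and not as a test. Counted by probe, 2 of the 14 member probes measured on both arrays were past 2-fold downwards and 0 upwards, beside 4.11% and 4.15% of all measured probes.

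The values compared are the scanner software's processed signals, each divided by the 75th percentile of its own array, which was 849 for control and 966 for RCCS. A log2 ratio is RCCS minus control after this scaling, so a negative value means lower in the RCCS cells. A gene with several measured probes takes their mean. The interval given with a ratio is a 95% interval of the spot error that the software assigns. It does not cover cultures, RNA extraction or the distance between a gene's probes. That error was 0.204 in log2 for Cd9, Cd81 and Adam8 alike, and it is not a spread measured between spots. For 106 probes printed on 5 or more spots and bright on both arrays, the SD between spots had a median of 0.04. For 44 such probes with a signal under 100 on either array it was 0.22. Each member probe had 1 spot on each array.

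The members' ratios lay on both sides of 0. They spanned 2.58 log2 units, 5 were below 0 and 3 above, and their median was -0.07. The median of all measured genes was -0.13, with 61.8% of genes below 0. Scaling on 7 spike-in probes moved that median up by 0.31, and scaling on the probes measured on both arrays moved it up by 0.14. These choices also changed the split of the array-wide 2-fold calls from 622 higher and 603 lower to 1201 and 261 with spike-in scaling, and to 833 and 416 with scaling on probes measured on both arrays. A loess fit, which moved the median up by 0.13, gave 756 higher and 434 lower, and quantile normalization after another background correction gave 415 and 248. Dcstamp, Ocstamp, Atp6v0d2, Cd9, Sirpa and Adam8 kept their direction under all 15 alternative settings, while Cd81 and Cd47 did not. Some of these settings vary only the filter or how probes are combined. They cannot move Dcstamp, Atp6v0d2, Cd81 or Adam8, which had 1 probe each.

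**Figure D1:**
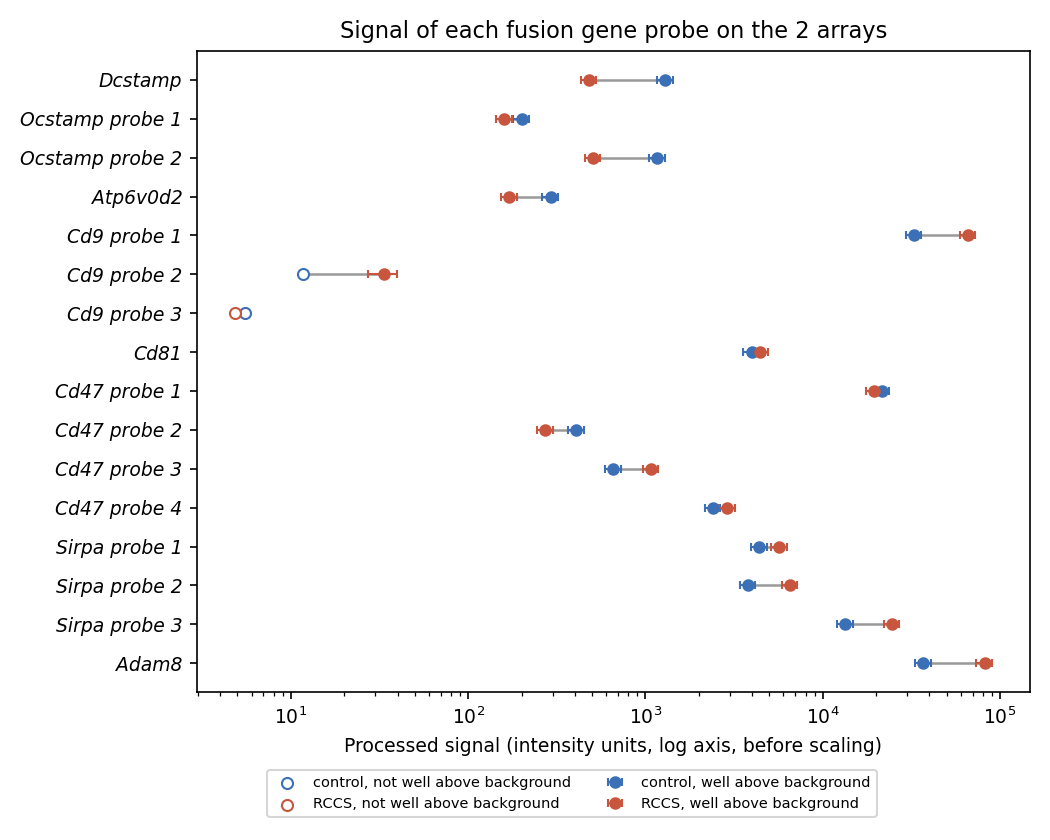
Processed signal of each of the 16 fusion gene probes on the control array (blue) and the RCCS array (red), on a log axis before scaling between arrays; filled points with bars are probes well above background with the software's spot error, open points are not. Dcstamp, Ocstamp and Atp6v0d2 lie to the left on the RCCS array, and Adam8 (36850 and 81767) and the first Cd9 probe (32746 and 65747) to the right.

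Dcstamp had 1 probe, listed at chr15:39758941-39759000, in the scanner file's own coordinates, for which no source used here names the genome build. Its processed signal was 1297 in the control cells and 481 in the RCCS cells. The log2 ratio was -1.62 (95% interval -2.02 to -1.22). Only 139 of 16023 measured genes, or 0.868%, had a lower ratio. The value ranged from -1.62 to -1.31 over 15 alternative processing settings, and Dcstamp was at least 2-fold lower in 15 of 15. With 1 probe, the settings that vary only the filter or the probe summary could not change its ratio. Because RNA was taken from the whole culture, fewer cells making a transcript and less of it per cell cannot be told apart, for this gene and for those below.

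Ocstamp, a close functional partner of Dcstamp, had 2 probes on the same transcript at chr2:165136114-165136173 and chr2:165136213-165136272, with starts 99 bases apart. The first gave a signal of 200 in the control cells and 160 in the RCCS cells, a log2 ratio of -0.51 (95% interval -0.92 to -0.09). The second gave 1165 and 504, a log2 ratio of -1.39 (95% interval -1.79 to -0.99). Both probes were thus lower on the RCCS array, by amounts that lay 0.89 apart on the log2 scale. Among 5091 genes with several measured probes, the median distance between the lowest and highest probe was 0.30, and 7.29% had probes more than 1 apart. The mean of the Ocstamp probes was -0.95 (95% interval -1.24 to -0.66, which holds neither probe's ratio), and 4.36% of measured genes were lower. The brighter probe alone puts Ocstamp past 2-fold and the mean does not. The ratio of Dcstamp was lower than that of Ocstamp by 0.67 (difference -0.67, 95% interval -1.16 to -0.17, spot error only). This interval leaves out the 0.89 between the Ocstamp probes, of which the brighter, at -1.39, lay closer to Dcstamp than the mean.

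The RCCS array was also lower for other genes with the conserved domain that gives this family its name, Dcst1 and Dcst2, which are best known from sperm; they were looked up after the values above had been seen. Dcst1 had log2 ratios of -0.72 and -0.96 at 2 probes, with signals of 42.5 and 61.3 on the control array and 29.3 and 35.9 on the RCCS array. A further Dcst1 probe did not clear background. Dcst2 had a ratio of -0.77, from 36.5 to 24.4. These signals lie near the dimmest ones the software called well above background (24.2 for control, 21.2 for RCCS), a range where repeated spots differed more.

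Atp6v0d2 had 1 probe, at chr4:19804305-19804364. Its signal was 292 in the control cells and 170 in the RCCS cells, a log2 ratio of -0.96 (95% interval -1.38 to -0.55). A share of 4.20% of measured genes was lower. Its paralog Atp6v0d1, the form of the same subunit found in nearly all cells, went the other way, from 13673 to 23914, a log2 ratio of 0.62. The paralogs' ratios differed by -1.59 (95% interval -2.16 to -1.01, spot error only).

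The rest of the pump had higher ratios. Of 24 other subunit and accessory genes, 20 were measured on both arrays, and 0 of those 20 had a ratio as low as that of Atp6v0d2. None of the 20 was at least 2-fold lower or higher, beside 3.76% and 3.88% of all measured genes. Of the 20, 16 had a ratio above 0, while 61.8% of all measured genes were below 0. The list's median was 0.09, beside -0.13 for all genes, with a range from -0.48 to 0.93. The highest were Atp6v1a at 0.93, in the catalytic ring, Atp6v1d at 0.89, in the central stalk, and Atp6v0a1 at 0.89, a proton-channel subunit. Tcirg1, the channel subunit of the osteoclast's ruffled border, was at 0.37, from 11526 to 16893. The list's median was above 0 in all 15 alternatives, from 0.05 to 0.40.

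**Figure D2:**
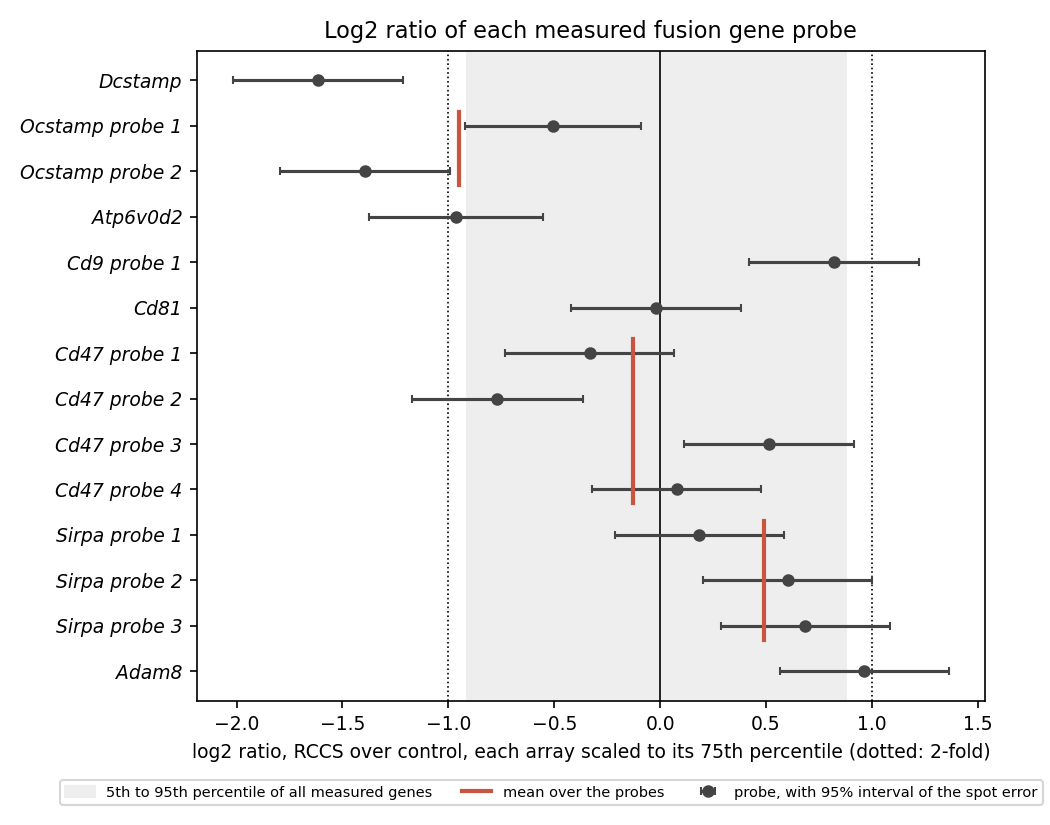
Log2 ratio, RCCS over control, of the 14 fusion gene probes measured on both arrays, with 95% intervals of the spot error; red bars are means over a gene's probes and the grey band holds the 5th to 95th percentile of all measured genes, -0.91 to 0.88. Dcstamp and the second Ocstamp probe lie past the dotted 2-fold line, and the 4 Cd47 probes spread over both sides of 0.

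Promoter stretches of 3 members are shown here from the RefSeq table (assembly GRCm38.p6), since Cd9 and Adam8 were both higher while Cd81, the tetraspanin relative of Cd9, was near 0. Each sequence is the 250 bases before the annotated start, on the gene's strand, at chr6:125494761-125495010 (minus strand) for Cd9, chr7:139992563-139992812 (minus strand) for Adam8 and chr7:143052500-143052749 (plus strand) for Cd81. Capitals mark matches, on either strand, to GGAAA (the core letters of NFAT sites) and GGGCGG (the GC box, bound by Sp factors).
Cd9: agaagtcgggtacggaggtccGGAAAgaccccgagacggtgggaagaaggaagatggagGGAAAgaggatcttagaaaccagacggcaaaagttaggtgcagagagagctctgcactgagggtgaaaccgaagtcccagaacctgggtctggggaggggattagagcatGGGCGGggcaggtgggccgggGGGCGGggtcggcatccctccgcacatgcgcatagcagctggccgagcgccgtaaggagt
Adam8: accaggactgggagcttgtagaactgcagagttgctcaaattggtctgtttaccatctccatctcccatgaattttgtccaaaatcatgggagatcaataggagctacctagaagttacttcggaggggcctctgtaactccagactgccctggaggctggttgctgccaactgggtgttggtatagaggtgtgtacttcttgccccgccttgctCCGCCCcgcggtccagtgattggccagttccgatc
Cd81: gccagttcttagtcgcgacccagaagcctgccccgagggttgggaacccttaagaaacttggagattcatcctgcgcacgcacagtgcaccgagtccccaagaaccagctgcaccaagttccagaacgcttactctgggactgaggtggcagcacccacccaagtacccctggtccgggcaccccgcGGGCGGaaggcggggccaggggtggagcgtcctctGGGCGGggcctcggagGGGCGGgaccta
Counting back from the start, the Cd9 stretch held 2 NFAT core matches, with first bases at -229 and -191, and 2 GC boxes at -81 and -60. Adam8 had 1 GC box at -35 and Cd81 had 3, at -63, -28 and -12, and neither held the NFAT core letters. The AP-1 letters TGANTCA were in 0 of the 3 stretches. Cd47 is also in the table but not shown, and its stretches each held 2 GC boxes and no NFAT core or AP-1 letters. Dcstamp, Ocstamp, Atp6v0d2 and Sirpa are not in it, so the genes that were lower could not be compared. Of 32851 promoter stretches of this length in the table, 55.6% held the NFAT core letters, 32.7% the GC box and 6.75% the AP-1 letters. CANNTG, the E-box read by Mitf among others, was found 3 times for Cd9 and 1 time each for Adam8 and Cd81, and was in 66.2% of all stretches. Its matches are not in capitals and overlap none of them. All 4 motifs were searched on both strands, and a match describes letters only.

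Cd9 had 3 probes under its name. The probe on the RefSeq transcript, at chr6:125482335-125482394, gave 32746 in the control cells and 65747 in the RCCS cells, a log2 ratio of 0.82 (95% interval 0.42 to 1.22), and 5.59% of measured genes were higher. On the control array the local background of this spot was marked by the software as out of range. A second probe, designed on an unclassified cDNA clone 16584 bases away, gave 11.7 and 33.5. It cleared background on the RCCS array alone, where its signal puts it at least 1.22-fold higher. That bound leaves out the spot error of 6.20 on the RCCS signal. The third, on a clone listed on the opposite strand 35697 bases away, gave 5.51 and 4.82 and cleared background on neither array. The value of Cd9 therefore rests on 1 probe.

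Cd81, at chr7:139495112-139495171, gave 3970 in the control cells and 4454 in the RCCS cells. After scaling the log2 ratio was -0.02 (95% interval -0.42 to 0.38), and its sign was the same in 8 of 15 alternatives, with 0.29 as the highest value. The ratio of Cd9 was above that of Cd81 by 0.84 (95% interval 0.27 to 1.41, spot error only).

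Among 16 other tetraspanins measured on both arrays, 0 were at least 2-fold lower or higher, beside 3.76% and 3.88% of all measured genes. The median was 0.21, beside -0.13 for all genes, and 1 tetraspanin had a higher ratio than Cd9. That gene was Upk1a, a bladder tetraspanin, at 0.83 with dim signals of 42.1 and 95.4. Cd151 was at 0.71, Cd37 at 0.58 and Cd53 at 0.56, the latter pair being tetraspanins of blood cells. Cd63, the tetraspanin of late endosomes and lysosomes, was at -0.02, and Cd82 at -0.57 was the lowest of the list. The list's median stayed above 0 in all 15 alternatives, from 0.01 to 0.52, while Cd63 kept its sign in 7.

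Membrane partners of Cd9 and Cd81 had a median of -0.28, or -0.15 relative to that of all genes. Of 11 measured, 2 were at least 2-fold lower and 0 higher, beside 3.76% and 3.88% of all measured genes. Below 0 were 9 of the 11 partners, as were 61.8% of all measured genes. Spike-in scaling moved the list's median to 0.03. Ifitm3, an interferon-induced membrane protein that restricts virus entry, gave 179502 in the control cells and 91569 in the RCCS cells, a ratio of -1.16. It was past 2-fold in 11 of 15 alternatives and not with spike-in scaling, loess or quantile normalization, where it came up to -0.76. Epcam, an epithelial adhesion protein, was at -1.54 with dim signals of 69.6 and 27.2, and was past 2-fold in 11 of the 13 alternatives that measured it, but not after the normexp background correction, with -0.59 as its highest value. The fibronectin-binding integrin subunits Itga4 and Itga5 went opposite ways, at -0.83 and 0.95. Igsf8, a direct partner of both tetraspanins, was at -0.08, with a sign that 5 of 15 alternatives did not keep, and Ptgfrn, its relative, was at -0.56 with signals of 37.7 and 29.1.

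Cd47 had 4 probes, all measured, which did not move together. The probe on the RefSeq transcript, listed at chr16:49667489-49671604 and so spanning 4116 bases of genome, gave 21569 in the control cells and 19481 in the RCCS cells, a log2 ratio of -0.33 (95% interval -0.73 to 0.07). The other 3 lie further along on a cDNA clone. At chr16:49672885-49672944 the signals were 408 and 272, a ratio of -0.77 (95% interval -1.17 to -0.37). At chr16:49675029-49675088 they were 660 and 1071, a ratio of 0.51 (95% interval 0.11 to 0.91). At chr16:49675463-49675522 they were 2407 and 2890, a ratio of 0.08 (95% interval -0.32 to 0.48). The probes were thus 1.28 apart, with 2 below 0 and 2 above, and the intervals of the lowest and the highest did not overlap. Their mean, -0.13 (95% interval -0.33 to 0.07), does not describe any one of them, and it lay at 0.18 with spike-in scaling.

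Sirpa, the receptor of Cd47, had 3 probes that were all higher on the RCCS array. The probe on the RefSeq transcript, listed at chr2:129359415-129368824 and spanning 9410 bases of genome, gave 4396 in the control cells and 5685 in the RCCS cells, a log2 ratio of 0.19 (95% interval -0.21 to 0.59). The probe at chr2:129371929-129371988 gave 3775 and 6517, a ratio of 0.60 (95% interval 0.203 to 1.002). The one at chr2:129372986-129373045 gave 13380 and 24474, a ratio of 0.69 (95% interval 0.29 to 1.09). Their mean was 0.49 (95% interval 0.26 to 0.72), with 12.2% of measured genes higher. For the last of these the control value came from the normal scan and the RCCS value from the low-gain scan described below. The mean of Sirpa lay 0.62 above that of Cd47 (95% interval 0.31 to 0.92, spot error only). This interval leaves out the spread between probes, and a Cd47 probe at 0.51 lay above the Sirpa probe at 0.19.

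Around this pair, 11 other ligand and signalling genes were measured. Of these, 1 was at least 2-fold higher and 0 lower, beside 3.88% and 3.76% of all measured genes. The list's median was 0.05 and was not above 0 in 2 of 15 alternatives. Ptpn6 (SHP-1), the phosphatase recruited by Sirpa, was at -0.48 over 3 probes that ran from -0.96 to 0.01. Its relative Ptpn11 (SHP-2) was at 0.05, below 0 in 2 of 15 alternatives, over 3 probes from -0.46 to 0.65. The kinase Jak2 was highest at 1.05 and past 2-fold in 13 of 15 alternatives, followed by the adaptor Fyb at 0.84 (0.25 without the filter on dim probes), the Src-family kinase Fgr at 0.79 and the focal adhesion kinase Ptk2b (Pyk2) at 0.75. Thbs1, a secreted ligand of Cd47, did not clear background on either array.

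Adam8 had 1 probe, at chr7:136392816-136392875. The signal was 36850 in the control cells and 81767 in the RCCS cells, a log2 ratio of 0.96 (95% interval 0.56 to 1.36). A share of 4.15% of measured genes, 665 genes, was higher. Of 9 other ADAM genes measured, 0 had a higher ratio. None was at least 2-fold lower or higher, beside 3.76% and 3.88% of all measured genes. Their median was 0.03, beside -0.13 for all genes. Over the alternatives the ADAM median ran from -0.17 to 0.50 and kept its sign in 12 of 15. Adam9 was at 0.58, from 5268 to 8927, and Adam10, a sheddase of many surface proteins, at 0.57, from 1221 to 2062. Adam15 was at 0.42, Adam17, the protease that releases TNF, at -0.09, and Adam33 at -0.62 with dim signals. Adam12, reported in myoblast and macrophage fusion, cleared background on neither array. The ratios of Adam8 and Cd9 differed by 0.14 (95% interval -0.42 to 0.71).

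Bright spots were read from a low-gain scan that the software scaled up, by a factor of 9.32 for control and 9.33 for RCCS, and the lowest signals read this way were 17819 and 18628. On both arrays this holds for 3 member probes, that of Adam8 and the RefSeq transcript probes of Cd9 and Cd47. Another 12 of the 16 member probes came from the normal scan on both arrays, among them all those of Dcstamp, Ocstamp and Atp6v0d2, and 1, of Sirpa, from different scans. The part of the scan in these ratios was not tested.

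**Figure D3:**
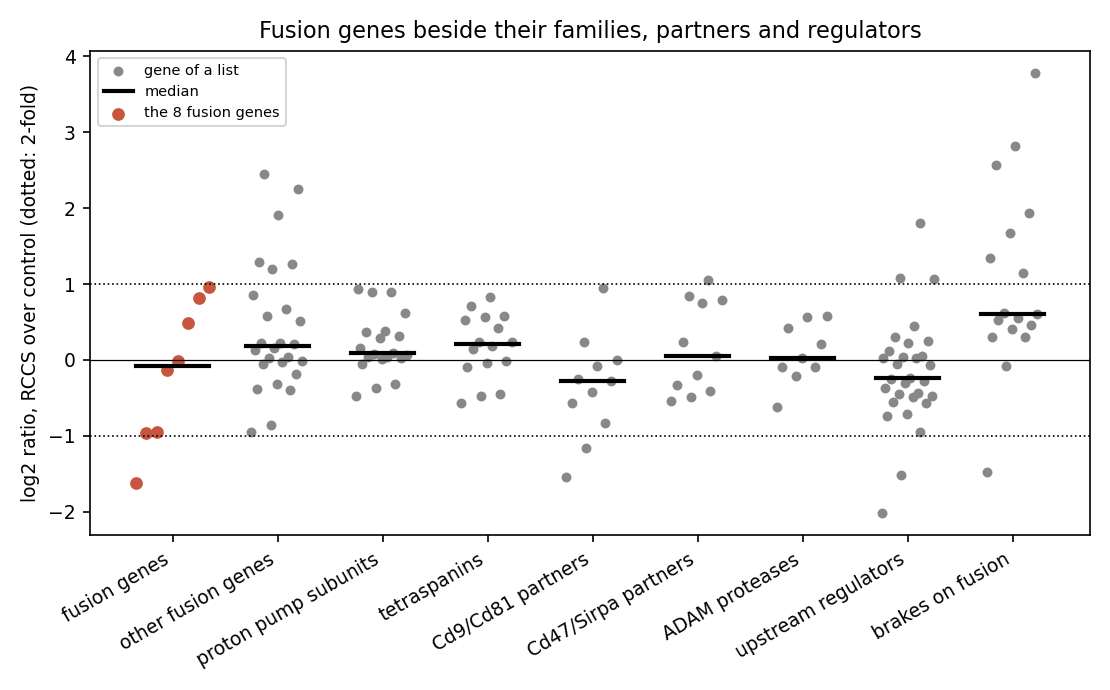
Log2 ratio, RCCS over control, of the 8 fusion genes (red) and of the measured genes of 8 lists (grey), with the median of each as a black bar; dotted lines mark 2-fold. The list of genes taken as brakes on fusion sits highest, at a median of 0.60, and the pump subunits lie between -0.48 and 0.93, above Atp6v0d2.

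Other genes with a reported role in macrophage or osteoclast fusion went in both directions. Of 35 such genes 26 were measured, with 17 above 0 and 9 below. Of these, 0 lay past 2-fold downwards and 6 upwards, beside 3.76% and 3.88% of all measured genes. The median was 0.19, beside -0.13 for all genes, and lay between 0.11 and 0.50 over the alternatives. Cd200r1, an inhibitory receptor of myeloid cells, was at 2.45 (378 and 2365), and Il4ra, the receptor chain for interleukin-4, which drives macrophage giant cell formation, at 2.26 (267 and 1448). The chemokine Ccl2 was at 1.91 and the integrin subunit Itgav at 1.29, from 2 of its 4 probes; without the filter on dim probes Itgav was at 0.45. The other genes past 2-fold were the scavenger receptors Msr1 at 1.27 and Cd36 at 1.19, named after their values were seen. The lowest were the adaptor Pstpip2 at -0.95 and the membrane metalloprotease Mmp14 at -0.86, named in the same way. Trem2, an activating receptor, was at 0.85, P2rx7, an ATP-gated channel, at 0.68, and Cd44, the hyaluronan receptor, at 0.02. Tyrobp, the signalling adaptor of Trem2, was at -0.05, and both Cd44 and Tyrobp changed sign in 5 of 15 alternatives.

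Receptors and transcription factors upstream of the fusion genes were mixed. Of 33 genes 30 were measured, with 2 at least 2-fold lower and 3 higher, beside 3.76% and 3.88% of all measured genes. The list's median was -0.24, beside -0.13 for all genes, and spike-in scaling moved it to 0.07. Nfatc1, which drives Dcstamp and Atp6v0d2, was at -0.57, the mean of 2 probes at -0.86 and -0.28. The former, the brighter probe, gave signals of 4570 and 2873. Fos was at -0.45, from 12058 to 10052, and Tnfrsf11a, the RANK receptor, at -0.49. These 3 were below 0 in all 15 alternatives, and none was past 2-fold in any of them. Jdp2, an AP-1 family protein that promotes osteoclast formation, was the lowest at -2.02, from 29643 to 8317, and Nfkb2 was at -1.52. Syk, the kinase downstream of immunoreceptor adaptors, was at 1.80 and Mef2a at 1.07. Jun, named after its value was seen, was at 1.06. Mitf was at 0.22 from 1 measured probe, with signals of 93.3 and 124, and lay below 0 without the filter on dim probes.

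Genes listed as brakes on fusion or on the osteoclast program were mostly higher on the RCCS array. Of 20 genes 17 were measured and 15 were above 0, while 61.8% of all measured genes were below 0. Past 2-fold were 7 upwards and 1 downwards, beside 3.88% and 3.76% of all measured genes. The list's median was 0.60, which is 0.73 above that of all genes, and it lay between 0.55 and 0.91 over the alternatives. Id1, an inhibitor of basic helix-loop-helix factors, was at 3.78 (370 and 5801). Kctd12 was at 2.57, Id2 at 1.94 and Irf8, a repressor of Nfatc1, at 1.14. Bcl6, a repressor of Dcstamp, was at 0.60 (4107 and 7082). Past 2-fold also were Cd300lf at 1.68 and Id3 at 1.34, both named after their values were seen. Rgs10 at 0.31 and Tmem64 at 0.55, named in the same way, have been reported to promote osteoclast formation but are counted here. The counts and the median are thus not those of brakes alone. The listed genes have other roles too. The values of Id1, Id2 and Irf8 were known from earlier results of the same arrays. The count is therefore no independent evidence of a direction.

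Genes whose pair of scaled signals lay nearest to a member's were sought among 12342 genes. With 2 arrays, likeness means a near-equal scaled signal on each. Nearest to Dcstamp were Ppm1l, a protein phosphatase, at a ratio of -1.53, Ankrd41 at -1.40 and Stard4, a sterol transfer protein, at -1.37, all between 0.17 and 0.24 log2 units away. Nearest to the mean of Ocstamp were Slc29a2 (-0.91), Nemp1 (-0.99) and Prss22 (-0.88), and to Atp6v0d2 were Rgs16 (-0.999), Slc25a15 (-0.92) and Amigo1 (-0.88).

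The labelled cell type was checked on marker genes. All 10 macrophage markers were measured, with brightest-probe signals from 1289 to 486442 on the control array and from 5675 to 547485 on the RCCS array. Among them 1, Itgam, was past 2-fold upwards, with brightest-probe signals of 1289 and 5768. Of 8 osteoclast markers 7 were measured on both arrays, 4 of them below 0, as were 61.8% of all measured genes. The markers' median was -0.40. Mmp9 was at -0.66, the mean of 2 probes at -1.23 and -0.08. Tnfrsf11a was at -0.49, Itgb3 at -0.40 and Oscar, with dim signals of 86.8 and 73.1, at -0.43, while Clcn7 was at 0.60. Ctsk, the collagen-degrading protease, was at 1.22 and Acp5 (TRAP) at 0.06, with signals of 5713 and 6788, and Calcr cleared background on the RCCS array alone, at 14.5 and 23.6.

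Markers of other cell types were measured in part. Of 6 T cell markers 4 were measured, with no signal above 694 in the control cells and 531 in the RCCS cells. Of 5 B cell markers 2 were measured, none above 148 and 141, and of 5 neutrophil markers on the array 1 was, none above 74.8 and 78.8. Dendritic cell markers were measured for 4 of 6, with none above 320 and 435. Osteoblast markers reached 31.9 in the control cells and 168 in the RCCS cells, both for Runx2 (ratio 2.21), and a further 3 of the 6 (Bglap, Col1a1 and Sp7) cleared background on the RCCS array alone, at no more than 39.1. Of the fibroblast markers Dcn gave 15.2 and 462, clearing background on the RCCS array alone. Col1a2 went the other way, at a ratio of -0.55. Col3a1 cleared background through a different probe on each array, and its brightest probe gave 43.6 and 11.4. Pdgfra, Pdgfrb and Lum cleared background on neither array. The summed brightest-probe signals went from 104 to 292 for osteoblast markers and from 189 to 601 for fibroblast markers, the latter through Dcn. Their part in the members' ratios was not tested.

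**Figure D4:**
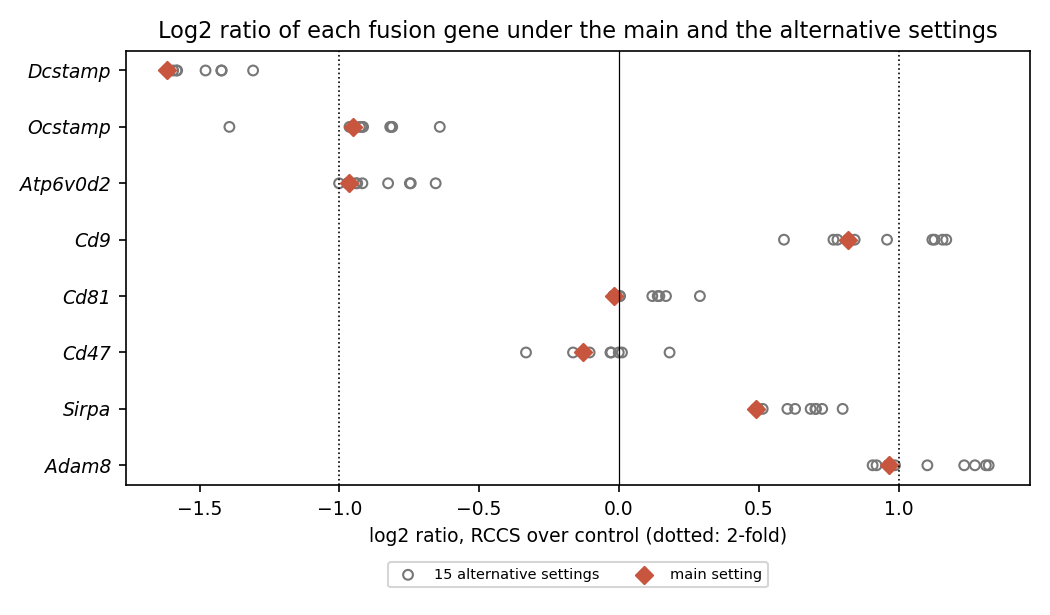
Log2 ratio, RCCS over control, of each fusion gene under the main setting (red diamonds) and 15 alternative settings (open circles); dotted lines mark 2-fold. Dcstamp stays past 2-fold in all of them, Cd81 and Cd47 lie on both sides of 0, and Adam8 passes 2-fold in 5 and Cd9 in 4.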

How the data were processed

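RNA of 2 RAW 264.7 samples was hybridised to Agilent 1-colour arrays on 1 slide, with 1 array each for control and RCCS. Spot intensities were made by the authors with Agilent Feature Extraction 9.5.3.1, per the file headers, with background subtracted and no scaling between arrays. The table of values deposited by the authors holds a ratio of that signal to a divisor near its own array's 75th percentile, found by comparison (849 and 964), with a median of 0.06 and a lowest value of 0.01 in both columns. It was used as an alternative.

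Here log2 of the processed signal minus each array's 75th percentile was compared, RCCS minus control, with spots of 1 probe averaged. Outlier spots (117 and 120) were left out, and 0 spots were saturated. A probe counted as measured where at least 50% of its spots were well above background on both arrays, as 23693 and 24936 of 41171 probes were on the control and RCCS array. Accessions of 22951 probes took the symbol of the RefSeq table, among them 9 member probes, and 18223 kept the file's name. Where 1 array alone measured a probe its fold is a bound, against the higher of the lowest well-above-background signal and its own signal on the other array. The bound leaves out the spot error. With 1 array per group no test was made, and the number of arrays limits precision.

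The genes, lists and tests were chosen with earlier results of these data known. Named are the 8 members, 29 further genes fixed by name, up to 4 measured genes of each list with the largest absolute ratio and the 3 genes nearest to Dcstamp, Ocstamp and Atp6v0d2; any other gene is said to be named after its value was seen, or belongs to a marker list. Some genes this rule takes are not reported here, though the list counts and medians include them. The 15 alternatives varied scaling, background, values, filter, probe summary and outliers; 1.5-fold and 3-fold thresholds were also tried. Calculations used Python 3.11.15, numpy 2.4.6, pandas 2.3.3, statsmodels 0.14.6 (loess) and limma 3.58.1 in R 4.3.3 (normexp), and were tested on simulated data.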

Additional observations from a re-analysis of the deposited data

How the results depend on the processing

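No paired analysis was possible because each condition had 1 array, and for the same reason no replicate could be left out. Dcstamp, Ocstamp, Atp6v0d2, Cd9, Sirpa and Adam8 kept their direction in 15 of 15 alternatives, Cd47 in 13 and Cd81 in 8. The filter and probe summary settings could not change Dcstamp, Atp6v0d2, Cd81 or Adam8, which had 1 probe each. With spike-in scaling Ocstamp was at -0.64, Cd47 at 0.18 and Sirpa at 0.80, and 2 members were at least 2-fold higher. With scaling on probes measured on both arrays 1 member was at least 2-fold higher. Quantile normalization gave 2 members at least 2-fold lower and 2 at least 2-fold higher, beside 496 and 674 of 16023 measured genes. The loess fit put Sirpa at 0.73 with 2 members at least 2-fold higher, and normexp followed by quantile normalization also gave 2. With the brightest probe in place of the mean, Ocstamp was at -1.39, Cd47 at -0.33, and 2 members were at least 2-fold lower. A threshold of 1.5-fold gave 3 members lower and 2 higher. The share of all genes past 1.5-fold is not given here, so these counts describe the members only. Spike-in scaling and scaling on probes measured on both arrays shift all genes by 1 constant each; the cause of the other changes was not tested. The members' median ran from -0.18 to 0.24 and kept its sign in 10 of 15. List medians and list genes were run under the same alternatives, a choice made after seeing the data. Signal over background limits the dim second Cd9 probe and Dcst1, Dcst2, Epcam, Upk1a and Ptgfrn, and no setting supplies the missing spread between cultures.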
